A study of Mus musculus with 9 samples.

Results

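The livers of trained mice with diet-induced NASH were compared with those of Control mice. The 3 mice of the NASH+Exercise group (mice 8, 18 and 22) were set against the 3 Control mice (mice 3, 4 and 29), chosen by their group labels alone, so that 6 of the 9 mice sequenced in the study entered the comparison. The 3 untrained NASH mice (mice 5, 19 and 20) were used to show which changes the diet alone had brought. All mice were male and wild type of a strain that the labels give as C57/BL and the study's methods as C57BL/6, and each library held the liver RNA of 1 mouse, with no pooling. Control mice ate a normal chow diet. NASH and NASH+Exercise mice ate the Ath (atherosclerotic) diet, a chow with added cholesterol and cholate, for 20 weeks. For NASH+Exercise mice, the last 8 of these weeks, from 20 weeks of age, included treadmill running at 12 m/min for 1 h a day on 5 days a week. By the study's methods, livers were collected after an overnight fast, so all levels below are fasted ones. NASH+Exercise and Control thus differed in both diet and training, and no trained mice on chow were analysed here, so in this comparison the effects of diet and training cannot be told apart. Values of the mice are given in the order named above.

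Non-alcoholic steatohepatitis (NASH) is a fatty liver with inflammation, hepatocyte injury and fibrosis. Dietary cholate and cholesterol act on liver nuclear receptors. FXR senses bile acids and shuts off bile acid synthesis, LXR senses oxysterols and drives sterol export, and PPARα senses fatty acids and drives their oxidation. Injured liver recruits neutrophils and monocytes through chemokines, secretes acute-phase proteins, and lays down collagen from activated stellate cells. Because whole liver was sequenced, a lower value can come from fewer cells of a type or from less RNA per cell, and these cannot be told apart.

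Total estimated counts ran from 20085976 to 22495408 per mouse, and 13619 genes had enough counts to be tested. Values are CPM, read counts scaled to library size with TMM factors between libraries. The first principal component (63.5% of the variance) held Control mice at -80.6 to -56.6, NASH mice at 43.7 to 55.9, and NASH+Exercise mice 8, 18 and 22 at 36.2, 18.7 and 13.8. Mouse 22 stood apart on the second component (12.8% of the variance) at -44.2. A gene was counted as a differentially expressed gene (DEG) at a Benjamini-Hochberg adjusted p under 0.05 in the edgeR quasi-likelihood test and an absolute log2 fold change above 1. All adjusted p-values below come from that test.

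Relative to Control, 1418 genes were up-regulated in NASH+Exercise livers, 10.4% of those tested, and 418 were down-regulated (3.07%). The 3 trained mice lay above all Control mice for 2933 genes (21.5%) and below them for 2320 (17%). NASH livers, set against the same Control mice, had 2082 up-regulated DEGs (15.3%) and 412 down-regulated ones (3.03%). Of the 2082 genes that the diet up-regulated, 1294 were still up-regulated in trained mice, which is 62.2% of the NASH list and 91.3% of the NASH+Exercise list. Of the 412 genes that the diet down-regulated, 280 were still down-regulated, 68% of the first list and 67% of the second. No gene (0) was a DEG in opposite directions. The median log2 fold change of the 1294 genes was 1.93 in NASH+Exercise and 2.43 in NASH, and 1117 of them had the smaller change in NASH+Exercise. For the 280 down-regulated genes the medians were -1.74 and -1.56, and only 105 had the smaller change in NASH+Exercise. What was still up-regulated therefore had mostly moved less far from Control in trained mice, which did not hold for what was still down-regulated. Over all genes tested, the median was 0.00 in NASH+Exercise and 0.01 in NASH. Both comparisons use the same Control mice, so these counts are descriptions and not independent. Trained and untrained mice were also tested against each other directly. Those calls depended on single mice, and over 9 fits that each left out 1 mouse Ugt1a9 was called in 7 and each of the other genes called against NASH in 0 to 4, so the number of such fits is given beside the genes described below.

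**Figure D1:**
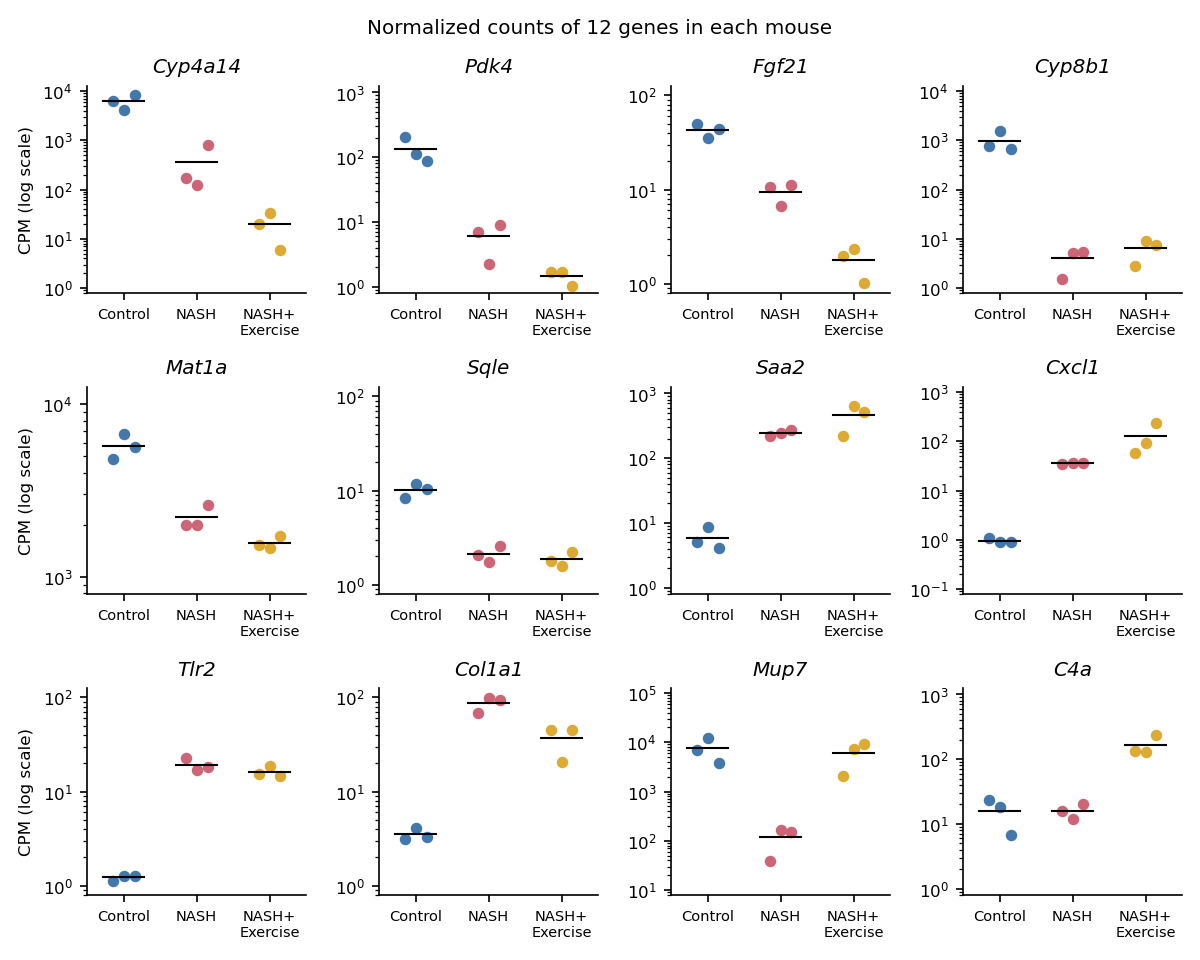
CPM (log scale) of 12 genes in each of the 9 mice, with 1 point per mouse and a line at the group mean. Cyp4a14, Pdk4, Fgf21, Cyp8b1, Mat1a and Sqle lie below Control in all NASH+Exercise mice, Saa2, Cxcl1, Tlr2, Col1a1 and C4a lie above it, and Mup7 overlaps with Control.

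Genes for burning fat stayed far below Control. Of 25 tested PPARα and fatty acid oxidation genes, 20 were down-regulated in NASH+Exercise and 0 up-regulated, against 22 down-regulated in NASH. In all 25 the 3 trained mice lay below every Control mouse. The list had a median log2 fold change of -1.54 in NASH+Exercise and -1.42 in NASH. Its summed expression was 31377 to 40065 CPM in Control, 7621 to 12051 CPM in NASH and 8183 to 9295 CPM in NASH+Exercise, and with 3 mice against 3 an exact two-sided permutation test cannot go below p = 0.1, the value found. Trained mice lay below all 6 other mice for 6 of the 25 genes, which held for 314 of all genes tested (2.31%).

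The lowest levels were found for direct PPARα targets. Cyp4a14, a fatty acid ω-hydroxylase, was at 6184, 4083 and 8442 CPM in Control and at 19.8, 33.7 and 5.8 CPM in NASH+Exercise. Untrained NASH mice were at 169, 126 and 803 CPM, so the 3 groups did not overlap and the trained mice were the lowest. The log2 fold change from Control was -8.30 ± 1.03 (SE, adjusted p = 0.000423) in NASH+Exercise and -4.09 (adjusted p = 0.00491) in NASH, and that between the trained and untrained mice was -4.21 (adjusted p = 0.116). Pdk4, a kinase that spares glucose by inhibiting pyruvate dehydrogenase, went from 207, 110 and 87.2 CPM in Control to 1.7, 1.65 and 1.02 CPM in NASH+Exercise. Again no trained mouse reached the level of any NASH mouse (6.94, 2.25 and 8.88 CPM), and the log2 fold changes were -6.52 ± 0.58 (adjusted p = 7.87e-05) and -4.49. Fgf21, a fasting hormone secreted by the liver, was at 50, 35.3 and 43.7 CPM in Control, 10.7, 6.67 and 11.2 CPM in NASH, and 1.96, 2.31 and 1.02 CPM in NASH+Exercise. Here the step between NASH and NASH+Exercise was itself a DEG (log2 fold change -2.42, adjusted p = 0.0405, called in 4 of the 9 fits without 1 mouse), beside -4.59 ± 0.30 (adjusted p = 1.15e-05) from Control. The receptor gene Ppara was at 398, 423 and 366 CPM in Control and 212, 223 and 261 CPM in NASH+Exercise, and its log2 fold change of -0.77 (adjusted p = 0.0067) did not reach the fold threshold. Cpt1a, which admits long-chain fatty acids to mitochondria, fell by 1.12 on the log2 scale (adjusted p = 0.000575) and was not a DEG when libraries were scaled by their size alone (-0.98).

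**Figure D2:**
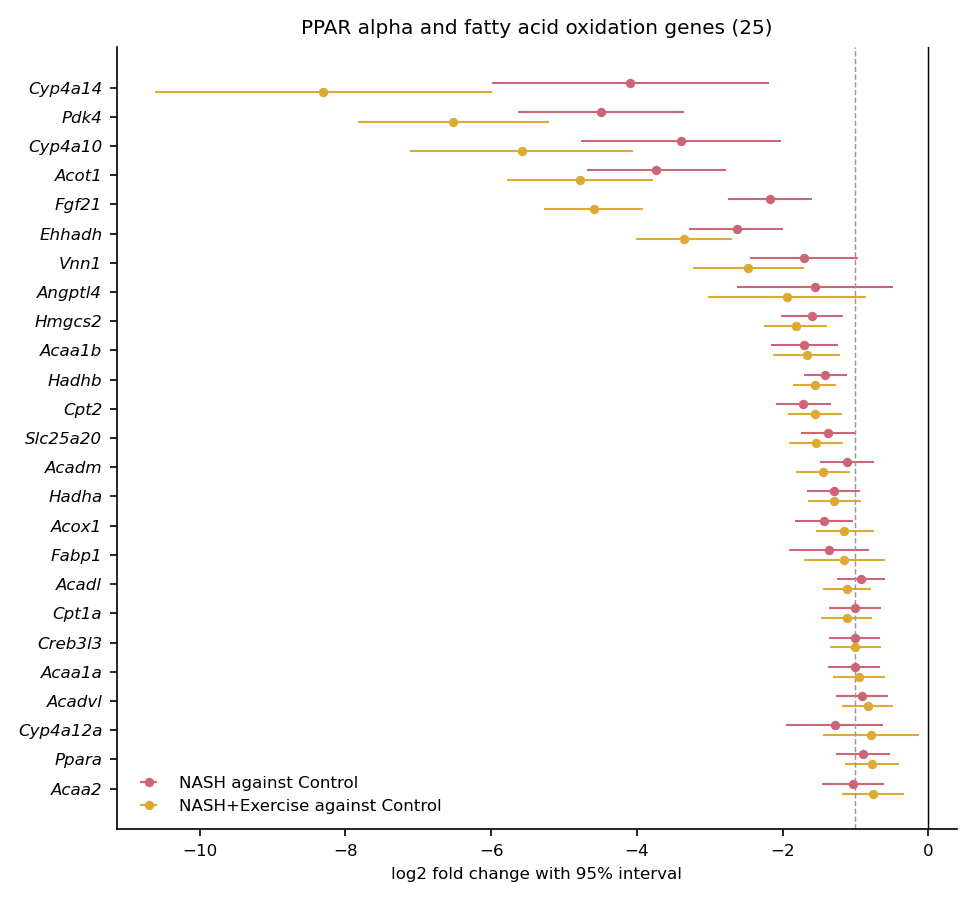
Log2 fold change from Control with its 95% interval for the 25 PPARα and fatty acid oxidation genes, in NASH and in NASH+Exercise, with a dashed line at -1. All 50 estimates are below 0, and for Cyp4a14, Pdk4, Cyp4a10 and Fgf21 the NASH+Exercise estimate is the lower one.

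Lipid droplet genes followed the same direction, with 8 of 17 down-regulated, 0 up-regulated and a median log2 fold change of -0.92 (-0.88 in NASH). Plin2, the main coat protein of hepatic droplets, was at 1481, 1575 and 1939 CPM in Control and 288, 438 and 282 CPM in NASH+Exercise. It fell by 2.31 ± 0.24 on the log2 scale (adjusted p = 9.31e-05), and the NASH mice (452, 325 and 529 CPM) overlapped with the trained ones. G0s2, an inhibitor of adipose triglyceride lipase, went from 570, 551 and 574 CPM to 18.6, 32.7 and 27.2 CPM. It fell by 4.43 on the log2 scale in NASH+Exercise and by 4.0 in NASH. No respiratory chain gene (0 of 75) was a DEG in either direction, and the list's median was -0.37 in NASH+Exercise and -0.63 in NASH. All 75 were nevertheless below 0 in NASH+Exercise. For 36 of them every trained mouse lay below every Control mouse, which held for 17% of all genes tested. Directly against NASH 74 of the 75 were above 0.

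Of 18 bile acid synthesis genes 2 were up-regulated and 2 down-regulated, with a median of -0.23 in NASH+Exercise and -0.62 in NASH. Cyp8b1, the 12α-hydroxylase that sets the share of cholic acid, was at 746, 1537 and 651 CPM in Control and at 2.84, 8.83 and 7.41 CPM in NASH+Exercise. The trained values overlapped with those of NASH (1.54, 5.24 and 5.44 CPM), with log2 fold changes of -7.27 ± 0.66 (adjusted p = 8.48e-05) and -7.90 (adjusted p = 3.52e-05). Cyp7a1, the rate-limiting enzyme of bile acid synthesis, was at 12.4, 34.5 and 4.75 CPM in Control and 30.1, 11.3 and 39.3 CPM in NASH+Exercise, which overlapped (log2 fold change 0.65 ± 0.80, adjusted p = 0.618). Cyp7b1, an oxysterol 7α-hydroxylase of the alternative pathway, was at 187, 276 and 196 CPM in Control, 40.1, 52.2 and 62.6 CPM in NASH, and 137, 193 and 316 CPM in NASH+Exercise. The trained mice overlapped with Control and lay above all NASH mice. The log2 fold change was -0.03 (95% interval -0.68 to 0.62, adjusted p = 0.959) against Control and 2.06 (adjusted p = 0.0405, called in 1 of the 9 fits without 1 mouse) against NASH. Cyp2c70, which makes muricholic acids, rose to 879, 1051 and 1431 CPM from 183, 201 and 131 CPM (log2 fold change 2.71 ± 0.23, adjusted p = 3.1e-05; 1.79 in NASH).

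The sterol export genes that passed the test were up-regulated and the sterol synthesis genes that passed it were down-regulated. Of 13 LXR target and efflux genes, 6 were up-regulated and 0 down-regulated, with a median of 1.0 in NASH+Exercise and 1.01 in NASH. Abcg5, part of the transporter that moves cholesterol into bile, was at 79.1, 69.2 and 69.5 CPM in Control and 278, 283 and 398 CPM in NASH+Exercise, a log2 fold change of 2.14 ± 0.17 (adjusted p = 2.38e-05) beside 2.12 in NASH. Of 26 cholesterol synthesis and SREBP2 genes, 7 were down-regulated and 0 up-regulated (median -0.30, against -0.71 in NASH). Sqle, squalene epoxidase, was at 8.32, 11.7 and 10.4 CPM in Control and 1.79, 1.56 and 2.24 CPM in NASH+Exercise, which put every trained mouse below every Control mouse (log2 fold change -2.44 ± 0.23, adjusted p = 5.27e-05). Hsd17b7, a later enzyme of the pathway, fell by 2.22 on the log2 scale (adjusted p = 1.38e-05).

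Lipogenic genes were split, with 5 of 15 up-regulated and 2 down-regulated. Srebf1, which encodes the transcription factor of fatty acid synthesis, was at 44.8, 59.3 and 59.6 CPM in Control, 215, 205 and 204 CPM in NASH, and 312, 313 and 468 CPM in NASH+Exercise. The 3 groups did not overlap, and the trained mice were highest (log2 fold change from Control 2.74 ± 0.19, adjusted p = 1.2e-05; 1.93 in NASH). Fasn, fatty acid synthase, was at 112, 138 and 81.6 CPM in Control and 176, 165 and 403 CPM in NASH+Exercise, where mouse 22 was far above the others. Its log2 fold change of 1.17 (adjusted p = 0.0272) was 0.63 without mouse 22, and the call was also lost without Control mouse 29 or 3. In the methionine and choline list 7 of 16 genes were down-regulated and 0 up-regulated. Mat1a, which makes S-adenosylmethionine, was at 4801, 6749 and 5677 CPM in Control and 1529, 1471 and 1721 CPM in NASH+Exercise (log2 fold change -1.87 ± 0.19, adjusted p = 8.21e-05; -1.38 in NASH). All trained mice were below all NASH mice (2005, 2006 and 2614 CPM), with an adjusted p of 0.256 between these groups.

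Among drug-metabolism genes, the UDP-glucuronosyltransferase gene Ugt1a9 was down-regulated. It stood at 65.2, 70.9 and 67.7 CPM in Control, 23.7, 19.2 and 20.4 CPM in NASH, and 8.38, 8.88 and 9.16 CPM in NASH+Exercise. The 3 groups were apart in that order, with log2 fold changes of -2.95 ± 0.12 (adjusted p = 8.94e-07) from Control and -1.26 (adjusted p = 0.00719, called in 7 of the 9 fits without 1 mouse) from NASH. The first exons of the Ugt1a genes share their downstream exons, so reads can be split among them. Of 42 cytochrome P450 genes of families 2 and 3, 7 were down-regulated and 2 up-regulated. Of 40 phase II conjugation genes, 7 were down-regulated and 2 up-regulated. Slco1a4, an organic anion and bile acid uptake transporter, fell to 20.6, 14.9 and 11.7 CPM from 85.2, 59.7 and 81.6 CPM (log2 fold change -2.26 ± 0.28, adjusted p = 0.000367), whereas in NASH it was -0.93.

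Inflammatory genes were for the most part still up-regulated. Of 26 chemokine and receptor genes, 24 were up-regulated and 0 down-regulated, with a median log2 fold change of 2.48 in NASH+Exercise and 3.23 in NASH. For 11 of them all trained mice lay between Control and NASH, which held for 1062 of all genes tested. It also held for 570 of the 1294 genes up-regulated in both NASH and NASH+Exercise, so it does not set the chemokine list apart from these. Cxcl1, a neutrophil attractant, was the only member of the chemokine list with all trained mice above the 6 others. It was at 1.07, 0.89 and 0.918 CPM in Control, 34.5, 36.4 and 36.1 CPM in NASH, and 58.3, 91.3 and 233 CPM in NASH+Exercise. The NASH values were close together and the trained ones wide apart, with log2 fold changes from Control of 7.04 ± 0.57 (adjusted p = 4.92e-05) and 5.21, and 1.84 (adjusted p = 0.128) between trained and untrained mice. In mean TPM, which accounts for transcript length, Cxcl1 was at 211 in NASH+Exercise, Cxcl10 at 16.4, Ccl2 at 8.95 and Cxcl2 at 3.07, so Cxcl1 was the most abundant of these 4.

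Promoters of chemokine and acute-phase genes are shown because both groups rose and their known regulators, NF-κB and C/EBP, have short recognition sequences. The windows run from 250 bases before to 50 bases after the RefSeq gene start, on the plus strand of GRCm38.p6, with the matched motif in capitals, on whichever strand it lies. The NF-κB letters GGGA, any base, then TTTCC, searched on both strands, were found in 2 of 18 chemokine genes with a promoter in the RefSeq table (11.1%), against 0.466% of 27025 promoters of that length. The letters TTGCNNAA (C/EBP) were found in 13 of 21 acute-phase genes (61.9%), against 12.2% of all promoters. The chemokine matches were in Cxcl1 (chr5:90890995-90891294) and Cxcl2 (chr5:90903649-90903948), and the acute-phase genes shown are Saa2 (chr7:46751583-46751882) and Orm3 (chr4:63355908-63356207). Both lists were chosen as genes of inflammatory responses, so these shares over all promoters are no result about these mice. A match is a description of letters and not a binding site.
Cxcl1: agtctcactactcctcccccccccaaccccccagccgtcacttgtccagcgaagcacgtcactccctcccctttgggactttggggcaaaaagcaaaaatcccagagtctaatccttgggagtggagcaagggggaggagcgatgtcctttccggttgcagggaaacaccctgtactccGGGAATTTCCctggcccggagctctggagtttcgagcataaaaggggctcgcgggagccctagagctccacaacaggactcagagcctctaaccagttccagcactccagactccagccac
Cxcl2: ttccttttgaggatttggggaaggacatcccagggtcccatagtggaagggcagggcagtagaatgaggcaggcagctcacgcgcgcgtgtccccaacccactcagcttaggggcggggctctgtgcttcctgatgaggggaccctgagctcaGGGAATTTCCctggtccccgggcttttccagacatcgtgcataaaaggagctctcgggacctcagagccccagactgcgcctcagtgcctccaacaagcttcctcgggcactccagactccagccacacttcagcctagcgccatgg
Saa2: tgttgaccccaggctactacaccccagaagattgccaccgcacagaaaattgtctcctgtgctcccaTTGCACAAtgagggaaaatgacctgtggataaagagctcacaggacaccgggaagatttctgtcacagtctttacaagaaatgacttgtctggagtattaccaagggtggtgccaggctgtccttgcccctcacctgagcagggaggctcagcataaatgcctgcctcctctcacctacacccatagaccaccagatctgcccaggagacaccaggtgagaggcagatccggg
Orm3: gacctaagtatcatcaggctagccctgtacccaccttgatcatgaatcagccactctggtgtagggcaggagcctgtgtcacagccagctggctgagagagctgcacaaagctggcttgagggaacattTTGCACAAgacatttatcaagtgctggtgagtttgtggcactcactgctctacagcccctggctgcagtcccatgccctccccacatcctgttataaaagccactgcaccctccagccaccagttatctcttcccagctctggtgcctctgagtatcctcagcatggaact

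The acute-phase list, made up of proteins that hepatocytes secrete during inflammation, was up-regulated in trained mice. Of 25 genes 16 were up-regulated and 0 down-regulated, with a median of 1.61 in NASH+Exercise and 1.35 in NASH. Summed expression was 33388 to 42948 CPM in Control, 46066 to 53038 CPM in NASH and 52693 to 79297 CPM in NASH+Exercise. Saa2, serum amyloid A2, was at 5.1, 8.51 and 4.13 CPM in Control and 219, 647 and 513 CPM in NASH+Exercise. Mouse 8 was at the level of the NASH mice (222, 243 and 273 CPM) and mice 18 and 22 were above it, for a log2 fold change of 6.28 ± 0.46 (adjusted p = 2.38e-05; 5.38 in NASH). Orm3, an orosomucoid, was at 1.93, 1.89 and 2.65 CPM in Control, 34, 35.8 and 26.7 CPM in NASH, and 62.1, 120 and 107 CPM in NASH+Exercise. Here all trained mice were above all NASH mice, and both steps were DEGs (5.47 ± 0.29 from Control, adjusted p = 6.29e-06; 1.58 from NASH, adjusted p = 0.0405, called in 2 of the 9 fits without 1 mouse). Saa1 and Saa2 are near-identical copies, so reads can be assigned to either.

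Toll-like receptor, TNF and IL1 genes were up-regulated in 21 of 25 cases and down-regulated in 0 (median 2.14, against 2.65 in NASH). Tlr2, a receptor for bacterial lipoproteins, was at 1.13, 1.28 and 1.28 CPM in Control and 15.5, 18.6 and 14.6 CPM in NASH+Exercise. These values overlapped with NASH (22.9, 17 and 18.1 CPM), and the log2 fold change was 3.72 ± 0.19 (adjusted p = 4.32e-06). Tnf had at most 3 counts in any Control mouse and was at 2.66, 1.94 and 1.27 CPM in NASH+Exercise (adjusted p = 0.000241). Il1b passed as well (log2 fold change 1.91, adjusted p = 0.0243), but not without mouse 8, Control mouse 3 or Control mouse 4 (1.55 to 1.58).

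Markers of immune cells rose with these genes, and their part in the results was not tested. Of 14 monocyte and macrophage markers, 13 were up-regulated and 0 down-regulated (median 2.90 in NASH+Exercise, 3.72 in NASH), and their summed expression was 60.6 to 117 CPM in Control, 668 to 798 CPM in NASH and 482 to 584 CPM in NASH+Exercise. Cd68, a macrophage lysosomal protein, was at 5.1, 6.56 and 7.04 CPM in Control and 52.5, 44.7 and 51 CPM in NASH+Exercise, all below the NASH mice (60.5, 71.6 and 59 CPM). In NASH+Exercise it rose by 2.98 ± 0.15 on the log2 scale (adjusted p = 4.32e-06), and in NASH by 3.35. Of 15 neutrophil markers 12 were up-regulated and 0 down-regulated, with a median of 4.0 in NASH+Exercise and 4.26 in NASH. Camp had no read in any Control mouse, and with Camp at the bound that 3 counts per library allow the medians were 3.58 and 3.67. For 6 other members the highest Control library held 1 to 3 counts. The calprotectin subunit gene S100a9 was at 0.268, 0.5 and 0.765 CPM in Control and 9.08, 9.96 and 5.95 CPM in NASH+Exercise (log2 fold change 4.0 ± 0.33, adjusted p = 2.39e-05), and the neutrophil-defining Ly6g and Cxcr2, named outside the rule for named genes, were not DEGs.

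Lipid-associated macrophage genes, which mark macrophages that have taken up lipid, were up-regulated in 10 of 14 cases. The 1 down-regulated member was Plin2, which hepatocytes also express. Gpnmb was at 0.429, 0.0556 and 0.408 CPM in Control and 70, 32.3 and 61 CPM in NASH+Exercise, with no overlap (log2 fold change 7.47 ± 0.76, adjusted p = 0.000154; 8.40 in NASH). Trem2, a lipid receptor of these cells, was at 8.29, 5.76 and 9.21 CPM against 0.268, 0.667 and 0.306 CPM in Control (4.22 ± 0.61, adjusted p = 0.000862). Of 9 markers of Kupffer cells, the resident macrophages of the liver, 4 were up-regulated and 0 down-regulated (median 1.66, and 1.48 in NASH). Clec4f was at 25.5, 34.8 and 43.1 CPM in Control and 107, 96.1 and 123 CPM in NASH+Exercise (1.66 ± 0.28, adjusted p = 0.00193), while Timd4, a marker of long-lived Kupffer cells, was not a DEG (1.30 ± 0.60, adjusted p = 0.149).

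Interferon and antigen-presentation genes lay closer to Control in trained than in untrained mice. Of 33 interferon-stimulated genes, 19 were up-regulated in NASH+Exercise and 26 in NASH, with medians of 1.2 and 1.96. For 16 of them all trained mice lay between the other groups. That position was also found for 570 of the 1294 genes up-regulated in both NASH and NASH+Exercise. Among the 788 genes up-regulated in NASH only, it was found for 207. Ifi27l2b was still far up at 40.4, 47.8 and 45 CPM, against 2.52, 2.56 and 2.35 CPM in Control (log2 fold change 4.16 ± 0.14, adjusted p = 2e-07). Tgtp1, an interferon-induced GTPase named here after its values were seen, was at 3.43, 4.39 and 5.05 CPM in Control, 82.8, 44.8 and 76.1 CPM in NASH, and 22.2, 14.8 and 10.7 CPM in NASH+Exercise. The trained mice sat between the groups, with a DEG on either side (1.89 from Control, adjusted p = 0.00204; -2.09 from NASH, adjusted p = 0.0405, called in 2 of the 9 fits without 1 mouse). For Igtp, another such GTPase, trained mice were at 37.1, 30.5 and 30.5 CPM, in the range of Control (24.6, 26.9 and 38.2 CPM) and below NASH (104, 58 and 116 CPM). Its log2 fold change from Control was 0.13 (95% interval -0.43 to 0.70), and that from NASH missed the threshold (-1.5, adjusted p = 0.0746). Of 12 MHC and antigen-presentation genes 7 were up-regulated and 0 down-regulated (median 2.22, and 3.20 in NASH), 9 of them with trained mice between the groups. H2-Aa, an MHC class II chain, was at 12.9, 27.3 and 31 CPM in Control, 242, 290 and 345 CPM in NASH, and 177, 119 and 146 CPM in NASH+Exercise (2.63 ± 0.31 from Control, adjusted p = 0.000229). Of 16 T and NK cell markers 12 were up-regulated and 0 down-regulated (median 1.46, and 2.16 in NASH), and of 10 B cell markers 1 was.

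**Figure D3:**
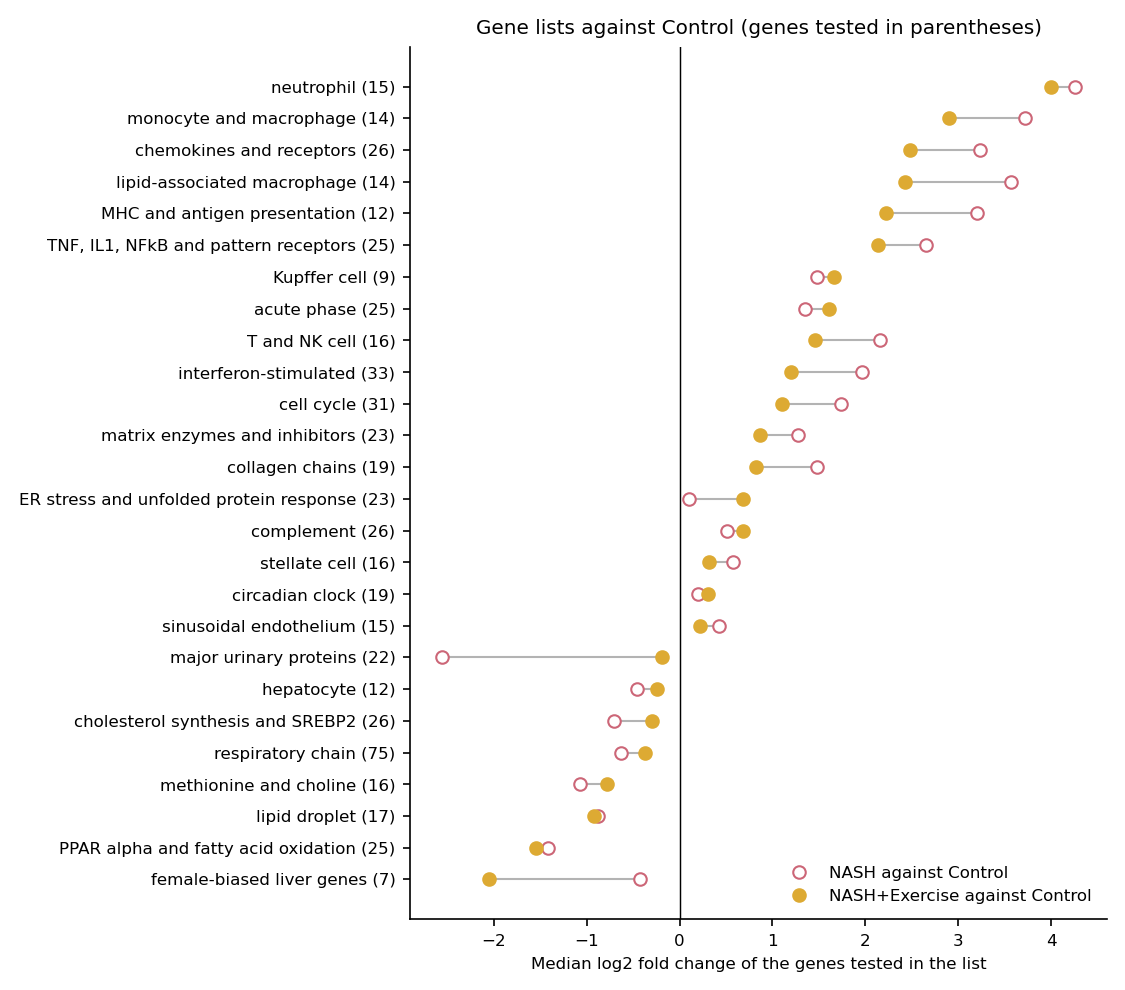
Median log2 fold change from Control of the genes tested in 26 lists, for NASH (open circles) and NASH+Exercise (filled circles), with the number of genes in parentheses. The neutrophil, macrophage, chemokine, MHC, TNF, T and NK cell and interferon lists have lower medians in NASH+Exercise than in NASH, the Kupffer cell and acute-phase lists have higher ones, the PPARα medians are close to each other, and the major urinary protein list has medians of -2.56 in NASH and -0.19 in NASH+Exercise.

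Matrix genes were up-regulated in part. Of 19 collagen chains 8 were up-regulated in NASH+Exercise and 15 in NASH, none (0) were down-regulated, and the medians were 0.82 and 1.48. For 9 chains all trained mice lay between the groups. This also held for 570 of the 1294 genes up-regulated in both NASH and NASH+Exercise, and for 207 of the 788 up-regulated in NASH only. Col1a1, the main chain of scar collagen, was at 3.11, 4.11 and 3.32 CPM in Control, 68.5, 98.4 and 94.7 CPM in NASH, and 44.5, 20.6 and 45 CPM in NASH+Exercise. Trained mice were above all Control and below all NASH mice, with log2 fold changes of 3.38 ± 0.31 (adjusted p = 6.68e-05) from Control and -1.25 (adjusted p = 0.122) from NASH. Of 23 matrix enzymes and inhibitors 10 were up-regulated, against 14 in NASH. Lox, a collagen cross-linking enzyme, had a log2 fold change of 1.56 (adjusted p = 0.0246) in NASH+Exercise and 3.15 in NASH, and the first was not a DEG without mouse 8, Control mouse 4 or Control mouse 29 (1.38 to 1.45). Of 18 TGF-β and YAP targets 3 were up-regulated and 1 down-regulated, against 9 and 1 in NASH. Ccn2, a matricellular YAP target, was at 3.81, 5.84 and 5.66 CPM in Control, 11.6, 11.7 and 10.5 CPM in NASH, and 2.66, 2.36 and 5.02 CPM in NASH+Exercise. Trained mice overlapped with Control (-0.61, adjusted p = 0.144) and lay below every NASH mouse, a difference that was a DEG (-1.75, adjusted p = 0.045, called in 1 of the 9 fits without 1 mouse). Eln, elastin, was not a DEG against Control (0.49 ± 0.36, adjusted p = 0.365; 2.1 in NASH). Of 16 stellate cell markers 2 were up-regulated, a share near the 10.4% of all genes tested. In NASH 6 were, beside 15.3% of all genes. In NASH+Exercise 13 of the 16 had log2 fold changes above 0 and 3 below, and Acta2 and Lrat were not DEGs.

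Proliferation genes were up-regulated in 11 of 31 cases, against 23 in NASH, with medians of 1.10 and 1.74. Top2a, a topoisomerase of dividing cells, was at 0.483, 0.167 and 0.459 CPM in Control and 2.84, 1.56 and 1.22 CPM in NASH+Exercise (log2 fold change 2.32 ± 0.45, adjusted p = 0.00378; 3.59 in NASH). Mki67 ranged widely among trained mice, at 4.23, 2.27 and 0.585 CPM, and was not a DEG (2.35, adjusted p = 0.0687). Of 9 cholangiocyte markers 1 was up-regulated, against 5 in NASH. That 1 was Spp1, which macrophages also express, and its call (1.64, adjusted p = 0.0484) was lost without any single Control or NASH+Exercise mouse (1.34 to 1.82).

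In all, 788 of the 2082 genes up-regulated by the diet (37.8%) and 132 of the 412 down-regulated ones (32%) were not DEGs in NASH+Exercise. Missing the threshold did not mean reaching the Control level. Of the 788 genes, 773 had a log2 fold change on the same side of 0 as in NASH, 179 passed the adjusted p with a smaller fold, and only 55 had a 95% interval within -1 to 1. Their median log2 fold change was 0.82, against 1.47 in NASH. Of the 132 genes, 123 were on the same side, 53 passed the adjusted p and 22 had an interval within -1 to 1 (medians -0.75 and -1.21). Both sets were picked for passing the thresholds in NASH and missing them in NASH+Exercise. Their smaller medians in NASH+Exercise follow from that selection. Tested directly against NASH, 14 genes were higher in NASH+Exercise (0.103% of those tested) and 5 lower (0.0367%), with 2078 at an unadjusted p under 0.05. The number of these DEGs was 0 without NASH mouse 20 or mouse 18, 1 without Control mouse 3 or NASH mouse 5, 2 without mouse 22, 5 without NASH mouse 19, 10 without Control mouse 4, and 34 without mouse 8. Of these 19 DEGs, 9 belonged to the 920 genes just described, 1 of them up-regulated by the diet (Ccn2) and 8 down-regulated by it.

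Those 8 included 5 major urinary protein genes (Mup1, Mup7, Mup10, Mup12 and Mup22), the others being Cyp7b1, Car3 and Slc22a28. Major urinary proteins are pheromone carriers that male mouse liver makes under control of growth hormone and androgens. Of 22 tested members, 17 were down-regulated in NASH and 1 in NASH+Exercise, and the median log2 fold changes were -2.56 and -0.19. Mup7 was at 6934, 12070 and 3827 CPM in Control, 38.1, 168 and 153 CPM in NASH, and 2092, 7406 and 9023 CPM in NASH+Exercise. Mice 18 and 22 were within the range of Control and mouse 8 was below it, with all trained mice far above NASH (5.69, adjusted p = 0.0405, called in 1 of the 9 fits without 1 mouse). Against Control the log2 fold change was -0.30, with a 95% interval of -1.78 to 1.18. Mup1 was at 960, 1995 and 356 CPM in Control, 1.91, 7.49 and 3.66 CPM in NASH, and 128, 428 and 739 CPM in NASH+Exercise. Its log2 fold change from NASH was 6.62 (adjusted p = 0.0405, also called in 1 of the 9), and from Control -1.35 (adjusted p = 0.22). The 1 member still down-regulated was Mup9, at 20, 36.5 and 58.3 CPM against 676, 776 and 408 CPM in Control (-4.02, adjusted p = 0.0045). Mup20 and Mup6 were up-regulated in NASH+Exercise, Mup20 at 20285, 19137 and 24608 CPM against 8315, 7836 and 4424 CPM in Control (1.64 ± 0.25, adjusted p = 0.000838). The call of Mup6 was lost without Control mouse 29, Control mouse 3 or mouse 18 (1.03 to 1.25). Mup genes are near-identical copies in 1 cluster, so their single values are uncertain.

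**Figure D4:**
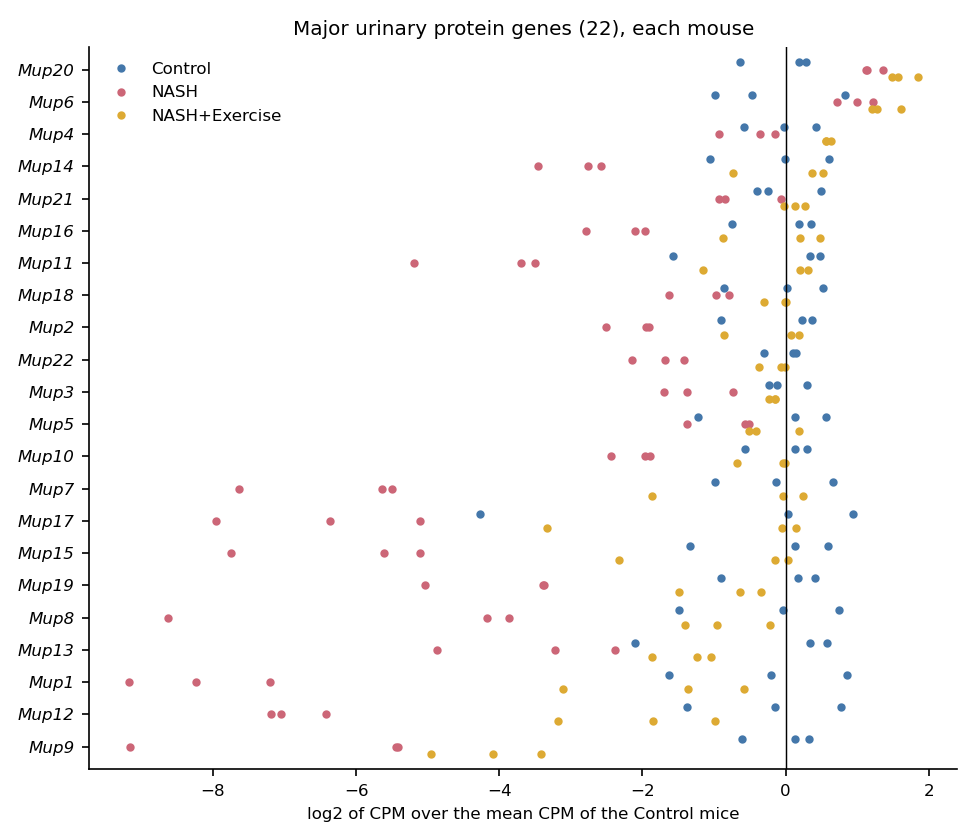
Log2 of CPM over the mean CPM of the Control mice for the 22 major urinary protein genes in each mouse, 1 point per mouse. NASH mice lie to the left of Control for most genes, NASH+Exercise mice lie near Control for most, and Mup9 is the lowest member in NASH+Exercise.

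Car3, a carbonic anhydrase of hepatocytes and muscle, had the same order. It was at 872, 1039 and 528 CPM in Control, 351, 271 and 290 CPM in NASH, and 921, 926 and 1640 CPM in NASH+Exercise, so that only NASH stood apart. The log2 fold change from NASH was 1.94 (adjusted p = 0.0405, called in 2 of the 9 fits without 1 mouse) and from Control 0.52 (95% interval -0.12 to 1.15). Susd4, an inhibitor of complement, lay between the groups, with 31.6, 54.8 and 33.3 CPM in Control, 3.41, 2.52 and 4.04 CPM in NASH, and 12, 17 and 23.1 CPM in NASH+Exercise. It was higher than in NASH (2.39, adjusted p = 0.0405, called in 3 of the 9) and still lower than in Control (-1.2, adjusted p = 0.0109), although the latter was below the fold threshold without Control mouse 4 (-0.88) or mouse 8 (-0.99).

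Anew, in NASH+Exercise but not in NASH, 124 genes were up-regulated and 138 down-regulated against Control. Most of these also leaned the same way in NASH, namely 117 of the 124 and 134 of the 138, and 52 and 63 of them had passed the adjusted p there with a smaller fold. A difference that is also a DEG against NASH was required of a gene called new, and 2 genes met this, C4a and Cyp2u1, both up-regulated. C4a encodes a complement C4 isotype known as sex-limited protein. It was at 23.3, 18.1 and 6.63 CPM in Control, 16, 11.8 and 20 CPM in NASH, and 136, 129 and 239 CPM in NASH+Exercise. Control and NASH overlapped and every trained mouse was above them, with log2 fold changes of 3.39 ± 0.45 (adjusted p = 0.000623) from Control and 3.40 (adjusted p = 0.0405, called in 2 of the 9 fits without 1 mouse) from NASH. Its near-identical neighbour C4b was at 886, 1250 and 826 CPM in Control and 1936, 2355 and 2102 CPM in NASH+Exercise (1.11, adjusted p = 0.0025, and 0.97 without Control mouse 29), and reads of this pair may be divided wrongly. Cyp2u1, a fatty acid hydroxylase, was at 8.59, 7.95 and 6.23 CPM in Control, 6.98, 7.22 and 5.02 CPM in NASH, and 16.5, 16.5 and 15.3 CPM in NASH+Exercise. The trained mice were again above all others (1.09 ± 0.18 from Control, adjusted p = 0.00126; 1.33 from NASH, adjusted p = 0.0405, called in 3 of the 9), and without Control mouse 29 the first value was 0.94. The number of such genes was 0 without Control mouse 3, without any of the NASH mice or without mouse 18 or 22, 3 without Control mouse 4, and 8 without mouse 8.

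Of 26 complement genes 10 were up-regulated and 1 down-regulated, with a median of 0.68 in NASH+Exercise and 0.51 in NASH, and 5 had all trained mice above the 6 others. Over all genes tested, trained mice lay above the 6 others for 268 (1.97%). The endoplasmic reticulum (ER) stress list holds genes of the response to unfolded proteins, chaperones and folding enzymes among them, and also Atf3, Chac1 and Asns. Of its 23 genes, 11 had all trained mice above the 6 others, and the summed expression was 3216 to 4062 CPM in Control, 3360 to 4227 CPM in NASH and 5227 to 5981 CPM in NASH+Exercise. In NASH+Exercise 6 were up-regulated and 1 down-regulated (3 and 1 in NASH), with a median of 0.68, against 0.10 in NASH. Chac1 (log2 fold change 3.24, and 3.04 in NASH) and Atf3 (1.87, and 2.49 in NASH) were up-regulated in both groups. Sdf2l1, an ER chaperone partner, was at 7.94, 19.1 and 6.43 CPM in Control, 28.6, 24.8 and 18.8 CPM in NASH, and 44.1, 53.8 and 55.1 CPM in NASH+Exercise. The trained mice were the highest, with a log2 fold change of 2.19 ± 0.36 (adjusted p = 0.00185) beside 1.11 in NASH. Pdia6, Creld2 and Manf, named after their values were seen, were DEGs in NASH+Exercise and not in NASH. Pdia6, a disulfide isomerase, was at 107, 166 and 106 CPM in Control, 182, 176 and 171 CPM in NASH, and 268, 308 and 327 CPM in NASH+Exercise (1.25, adjusted p = 0.000604). Creld2 was at 23.2, 45.3 and 24.7 CPM in Control and 80.6, 53.1 and 88 CPM in NASH+Exercise (1.25, adjusted p = 0.0161). Against NASH neither passed, with adjusted p of 0.123 for Pdia6 and 0.151 for Creld2. Hspa5, which encodes the chaperone BiP, was not a DEG at 965, 679 and 783 CPM, against 470, 634 and 493 CPM in Control (0.60, adjusted p = 0.0675).

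**Figure D5:**
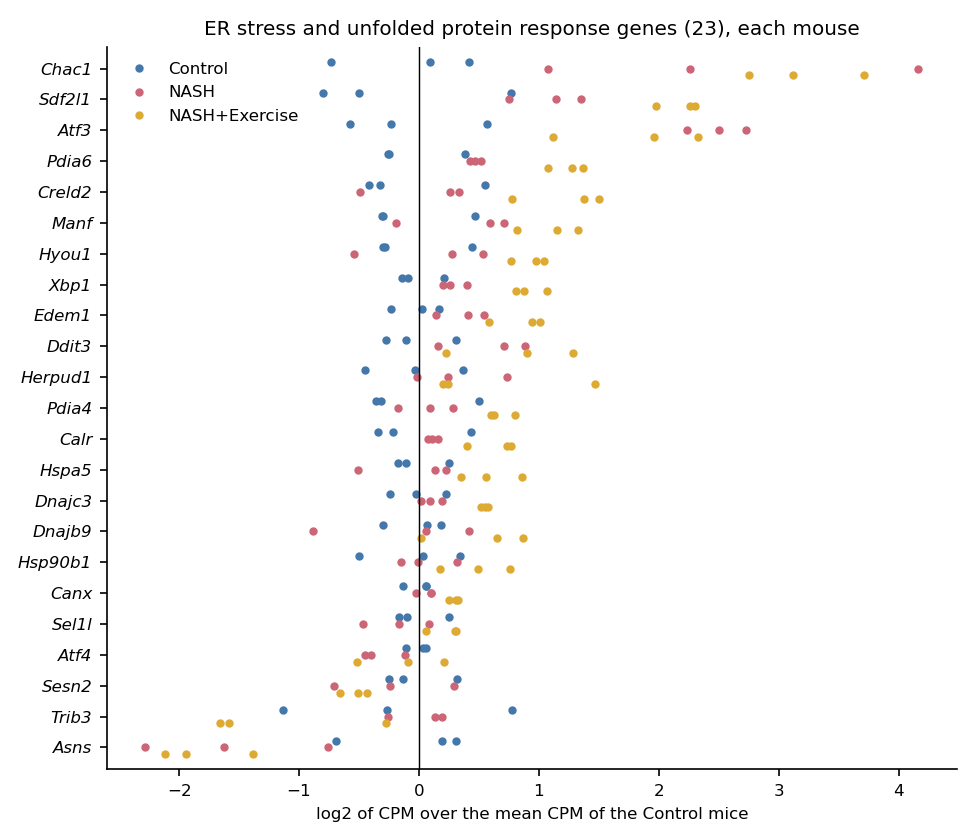
Log2 of CPM over the mean CPM of the Control mice for the 23 ER stress genes in each mouse, 1 point per mouse. For Pdia6, Creld2, Manf and others, 11 genes in all, the 3 NASH+Exercise mice lie to the right of all 6 other mice, while Asns lies to the left of Control in NASH+Exercise.

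The ER stress element, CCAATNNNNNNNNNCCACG on either strand, was found in the promoter window of 7 of 21 genes of this list (33.3%), namely Calr, Canx, Creld2, Dnajc3, Hsp90b1, Hspa5 and Pdia6, against 0.137% of all promoters. Of the 6 up- or down-regulated members with a promoter in the table, 2 held it. Because the list was chosen as genes of this response, its share over all promoters is no result about these mice. Another pattern searched, the sterol regulatory element TCACNCCAC, was found in 1 of 18 cholesterol synthesis genes (Hmgcs1, 5.56%, against 1.44% of all promoters). That list, too, was chosen as genes of its pathway. The window of Creld2 (chr15:88819396-88819695, plus strand of GRCm38.p6) is shown with the matched letters in capitals.
Creld2: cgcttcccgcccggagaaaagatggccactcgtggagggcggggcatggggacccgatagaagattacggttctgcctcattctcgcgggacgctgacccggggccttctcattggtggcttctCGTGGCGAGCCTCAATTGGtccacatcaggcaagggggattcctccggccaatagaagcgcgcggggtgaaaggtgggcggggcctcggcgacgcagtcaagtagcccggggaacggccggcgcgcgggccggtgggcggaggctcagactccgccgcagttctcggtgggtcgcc

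The T3 response list, which the study drew from other liver datasets, consists of genes that were higher in livers of mice given the thyroid hormone T3. Of 15 tested genes 7 were up-regulated and 5 down-regulated, against 2 and 3 in NASH, and the medians were 1.25 and -0.67. Directly against NASH the median was 0.09, with 8 members above 0 and 7 below, so the 2 medians do not show a shift of the whole list. For 7 members, however, every trained mouse lay above every NASH mouse, and for 0 below. Of the 13619 genes tested, this held for 1247 above and 2036 below. For 5 members all trained mice lay above the 6 others, beside 1.97% of all genes tested. Against Control the members moved both ways. Down-regulated ones were Cyp17a1, a steroid hydroxylase at 14.8, 12.3 and 17.6 CPM in Control and 1.57, 2.08 and 2.97 CPM in NASH+Exercise (-2.75, adjusted p = 0.00115), Sqle (-2.44), and the mitochondrial carrier Slc25a30 (-2.02, adjusted p = 0.0194, lost without Control mouse 3, mouse 18 or mouse 22). Mmd2 (-1.85) and Nt5e (-1.80), named outside the rule for named genes, were the others. Bcl3, an NF-κB co-regulator, was at 33.9, 28.9 and 37 CPM in Control, 44, 62.5 and 54.3 CPM in NASH, and 69.9, 124 and 125 CPM in NASH+Exercise, with no overlap among the groups (log2 fold change 1.67 ± 0.23, adjusted p = 0.00047). Slc22a7, an organic anion transporter, was at 4.88, 13.8 and 5.15 CPM in Control and 18.8, 29.7 and 26.8 CPM in NASH+Exercise (1.66 ± 0.39, adjusted p = 0.012), and the call was lost without Control mouse 29. Thrsp, a lipogenic protein, was at 10.1, 9.95 and 4.69 CPM in Control and 27.3, 20.6 and 199 CPM in NASH+Exercise, with mouse 22 far above the rest (3.32, adjusted p = 0.0168), a call that was lost without any 1 Control mouse. Dio1, the deiodinase that makes active hormone, was at 54.9, 76.5 and 27.2 CPM in Control, 26.5, 42.2 and 31 CPM in NASH, and 64.7, 134 and 180 CPM in NASH+Exercise. It overlapped with Control and was not a DEG against it (1.25, 95% interval 0.30 to 2.21, adjusted p = 0.0584). Every trained mouse was above every NASH mouse. That difference was not a DEG either (1.92, 95% interval 0.95 to 2.90, adjusted p = 0.128). None (0) of 11 thyroid hormone signalling genes was a DEG against Control, where Benjamini-Hochberg adjustment was over all genes.

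Most tested genes that female mouse liver expresses more than male liver were down-regulated in the trained males. Of 14 listed, 7 had enough counts, and 5 of these were down-regulated and 0 up-regulated, with a median of -2.05 in NASH+Exercise and -0.43 in NASH. For 4 of them trained mice were below all 6 others, which held for 2.31% of all genes tested. Cyp2a4 (log2 fold change -0.93, adjusted p = 0.574) and Cyp2b9 (-0.32, adjusted p = 0.855) overlapped with Control and were not DEGs. Acot3, a peroxisomal thioesterase that is also a PPARα target, was at 178, 145 and 133 CPM in Control, 3.7, 2.79 and 18.3 CPM in NASH, and 1, 0.425 and 0.634 CPM in NASH+Exercise (log2 fold change -7.76 ± 0.81, adjusted p = 0.000174). Fmo2, a monooxygenase named after its values were seen, was at 23, 11.5 and 15.3 CPM in Control, 14.4, 34.1 and 22.4 CPM in NASH, and 7.2, 4.11 and 7.26 CPM in NASH+Exercise (-1.42, adjusted p = 0.0192; 0.51 in NASH). Of 12 male-biased genes 2 were up-regulated and 0 down-regulated, against 1 and 6 in NASH, with medians of -0.14 and -0.94. Of all genes tested, 10.4% were up-regulated in NASH+Exercise. For 8 of the 12 every trained mouse lay above every NASH mouse and for 0 below, beside 1247 and 2036 of the 13619 genes tested. Hsd3b5, a male-specific steroid dehydrogenase, was at 31.3, 60.4 and 47.6 CPM in Control, 42.8, 33.1 and 56 CPM in NASH, and 106, 120 and 140 CPM in NASH+Exercise. The trained mice were above all others (1.39 ± 0.25 from Control, adjusted p = 0.00272), and the difference from NASH missed the threshold (1.47, adjusted p = 0.0746).

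Circadian clock genes varied within the trained group. Of 19 genes 5 were up-regulated in NASH+Exercise and 1 in NASH. Per3 was at 1.66, 1.11 and 2.35 CPM in Control and 27.3, 2.88 and 23.3 CPM in NASH+Exercise, where mouse 18 was close to Control and the other two far above it (log2 fold change 3.37, adjusted p = 0.00956, lost without Control mouse 4). Dbp showed the same split at 82.5, 2.03 and 58 CPM against 1.18, 1.72 and 6.99 CPM in Control, with overlap (3.83, adjusted p = 0.0479, lost without any 1 Control mouse and without mouse 8 or 22, 3.17 to 5.01). Hours of collection are not given in the sources used here.

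Markers of the tissue itself were present in every library. None (0) of 12 hepatocyte markers was a DEG, with Alb at 101864, 93850 and 87731 CPM in Control and 68516, 50740 and 68374 CPM in NASH+Exercise (log2 fold change -0.60, adjusted p = 0.0731). None (0) of 15 sinusoidal endothelial markers passed either, nor did any of 76 cytosolic and 75 mitochondrial ribosomal protein genes. Most ribosomal protein genes still had log2 fold changes below 0, namely 71 cytosolic and 66 mitochondrial ones, beside 6770 of the 13619 genes tested. Of markers for pancreas, skeletal muscle and adipose tissue, 1 gene each had enough counts to be tested.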

How the data were processed

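Liver mRNA libraries of 9 male mice, 3 per group and 1 per mouse, were sequenced. The authors deposited, per gene (as Entrez identifiers) and mouse, an estimated count without normalization, and 29.0 to 32.8% of these were not whole numbers. They also deposited TPM values, scaled by transcript length and library size, which were used here only for levels between genes, and FPKM values, which were not used. The submitters' processing notes name GRCm38.p6, HISAT2 2.1.0, Bowtie2 2.2.5 and RSEM 1.2.8, with no roles given. The values of all 9 mice are also held in 1 of the files, and of 285536 values compared 0 differed. RefSeq symbols were found for 17728 of 17846 identifiers. Whether the library kit kept the strand is not given in the sources used here, so it is not known whether reads of overlapping genes were told apart.

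Counts were rounded to whole numbers and tested with edgeR 4.0.16 in R 4.3.3 (filterByExpr by group with at least 10 counts and a total of 15, TMM, robust quasi-likelihood fit with the 3 groups as the model and all 9 mice in it, 6 residual degrees of freedom). P-values were adjusted by Benjamini-Hochberg over 13619 genes. Intervals are 95%. Lists are described by counts and medians, without set tests, and summed CPM by an exact two-sided permutation test. With 20085976 to 22495408 estimated counts per mouse, precision is set mainly by the number of mice, and counting limits cover counting error only. Replicates are separate mice.

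The genes named are marker genes set in the lists, the 10 called genes with the largest change in each direction at a mean of at least 5 CPM without overlap, up to 3 per list and direction, all genes that differ anew, and the 8 per direction with the smallest p among diet-changed genes still called and among those not called. Genes outside this rule are given as such. The comparison, the members and the lists were chosen with earlier results of these data known. The script was tested on simulated data. Promoters are from RefSeq (GRCm38.p6). Alternatives were DESeq2 1.42.0, other scalings, no filter, only 6 mice, no robust option, other call rules and leaving out each mouse.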

Additional observations from a re-analysis of the deposited data

How the results depend on the processing

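The 1418 up-regulated genes of NASH+Exercise against Control numbered 630 when tested against a log2 fold change of 1 (glmTreat), and the 418 down-regulated ones 143, or 1305 by adjusted p alone. Diet-changed genes still called numbered 2930 by adjusted p alone and 697 by glmTreat (1574 in the report), and those not called 1915 and 612 (920). NASH against Control gave 4846 and 1309 genes (2494). NASH+Exercise against NASH gave 174 genes with DESeq2 and 0 with glmTreat (19), with 0 to 34 when 1 mouse was left out. The genes that differ anew numbered 37 with DESeq2, 0 with glmTreat, 1 without a filter, 1 with scaling by library size alone and 0 to 8 when 1 mouse was left out (2). Leaving out 1 mouse gave 1165 to 1404 up-regulated and 392 to 434 down-regulated genes. Scaling by library size alone shifted the median of all genes by 0.15 in NASH+Exercise and by 0.36 in NASH, and gave 1568 up-regulated and 318 down-regulated genes. The cause of these differences was not tested. Of 182 named genes that were called, 150 were called under each of 15 alternatives that left the call rule as it was, 32 lost the call under at least 1, and 0 reversed. By glmTreat 119 of the 182 were called. No paired analysis was possible because the groups share no replicate numbers. With 3 mice a group, small changes may not have been detected.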

Other observations

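Some further genes differed from Control or from NASH. Raet1d, a ligand of the NK cell receptor NKG2D, was at 16, 16.9 and 24.7 CPM in Control, 1.08, 1.09 and 1.4 CPM in NASH, and 0.524, 0.236 and 0.146 CPM in NASH+Exercise, so trained mice were lowest (log2 fold change -5.94 by edgeR, adjusted p = 8.26e-06). Cyp2b10, the usual reporter of CAR activity, was at 12.7, 10.3 and 2.35 CPM in Control, 0.416, 0.0776 and 0.0425 CPM in NASH, and 0.262, 0.0472 and 0.292 CPM in NASH+Exercise. Trained and untrained mice overlapped, with log2 fold changes from Control of -5.35 (adjusted p = 0.0013) in NASH+Exercise and -5.53 in NASH. Gstm3, a glutathione transferase gene among NRF2 targets, was at 27.3, 21.7 and 10.9 CPM in Control, 278, 198 and 122 CPM in NASH, and 46.4, 53 and 69.6 CPM in NASH+Exercise. All trained mice lay between the groups, with log2 fold changes of 1.5 (adjusted p = 0.0153) from Control and -1.82 (adjusted p = 0.112) from NASH. Nudt7, a peroxisomal hydrolase of coenzyme A named after its values were seen, was at 122, 164 and 269 CPM in Control, 103, 90.2 and 90.1 CPM in NASH, and 327, 301 and 456 CPM in NASH+Exercise. It was higher than in NASH (1.93, adjusted p = 0.0405, called in 2 of 9 fits without 1 mouse), and its log2 fold change from Control, 0.97 (adjusted p = 0.023), fell just short of the fold threshold. Of the complement list, C9, named after its values were seen, was at 263, 266 and 181 CPM in Control, 404, 411 and 381 CPM in NASH, and 595, 610 and 642 CPM in NASH+Exercise (log2 fold change from Control 1.38, adjusted p = 0.000178).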
